A study of Homo sapiens with 96 samples.

Results

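TGM2, HIC1, UBASH3B, JCAD, CHST15 and SYT2 are 6 of the 60552 gene rows of a count table from 6 human acute myeloid leukaemia (AML) cell lines. They were chosen because their counts had been seen to rise with all-trans retinoic acid (ATRA) in 5 or 6 of the lines, so the comparison of ATRA with DMSO picked them and is given below as a description, with no test. In Kasumi1 on day 4 TGM2 held 0.0582 and 0.145 CPM (counts normalised for library size) with ATRA and CHST15 0 and 0.0483, against 0 in the DMSO libraries of both genes. On day 2 the mean of TGM2 there was 0.0179 CPM with ATRA and 0.0476 with DMSO. The lines were HL60, Kasumi1, MOLM13, MV411, OCIAML3 and THP1. As background, KMT2A is rearranged in THP1, MV411 and MOLM13, NPM1 is mutated in OCIAML3, and RUNX1 is fused to RUNX1T1 in Kasumi1. Cells received 0.1% DMSO, 1 µM GSK2879552, 100 nM ATRA, or GSK2879552 and ATRA together at the same doses, and RNA was taken on day 2 or day 4. GSK2879552 inhibits the histone demethylase LSD1 (KDM1A). The labels call the groups DMSO, 552A, ATRA and Combo, and 552A was read as the GSK2879552 group because it was the remaining arm of the protocol. Each of the 48 groups of line, treatment and day had 2 libraries, 96 in all, and the labels do not say that these were separate cultures. Within a line a p-value therefore measures only the spread between those libraries, which may be technical.

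ATRA binds retinoic acid receptors, which pair with retinoid X receptors on DNA and turn from repressors into activators of transcription when the ligand binds. In promyelocytic and some other AML cells ATRA brings on myeloid maturation, and LSD1 inhibitors have been studied as a way to widen that response. The 6 genes are not a pathway. HIC1 is a zinc-finger transcriptional repressor that recruits CtBP and represses SIRT1. TGM2 is tissue transglutaminase, which crosslinks proteins and is a known retinoid-responsive gene. CHST15 adds sulfate to chondroitin sulfate chains. UBASH3B (STS-1) is a phosphatase that binds CBL and acts on SYK-family kinases, JCAD is a cell junction protein linked to Hippo signalling, and SYT2 is a synaptotagmin, a calcium sensor of vesicle release.

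On the GRCh38 build TGM2 (ENSG00000198959.11) lies on the minus strand of chromosome 20 from 38127387 to 38166578, and HIC1 (ENSG00000177374.12) on the plus strand of chromosome 17 from 2054154 to 2063241. UBASH3B (ENSG00000154127.9) lies on the plus strand of chromosome 11 from 122655675 to 122814473. JCAD (ENSG00000165757.8) and CHST15 (ENSG00000182022.17) share the minus strand of chromosome 10, from 30012800 to 30115494 and from 124007666 to 124093607. SYT2 (ENSG00000143858.11) lies on the minus strand of chromosome 1 from 202590596 to 202710417. All 6 are protein-coding genes in GENCODE release 29. Exons of 3 of them overlap exons of a gene on the other strand: TGM2 shares 394 bases with RPRD1B, HIC1 shares 2419 with SMG6, and SYT2 shares 2111 with PPP1R12B. Whether the counting used strand is not stated in the sources used here, so it is not known how reads in those stretches were assigned between the 2 genes.

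Because the genes moved together with a ligand of a DNA-binding receptor, their promoter windows are shown for the members that RefSeq lists (GRCh38.p14, 250 bases before the transcript start and 50 from it, 5′ to 3′ on the gene's strand). RefSeq's table gave 6 windows for 4 of the members, UBASH3B, JCAD, CHST15 and SYT2, and 1 window of each is printed, at chr11:122655472-122655771 (plus), chr10:30115445-30115744 (minus), chr10:124093549-124093848 (minus) and chr1:202710405-202710704 (minus). Capitals mark the only receptor core hexamer found.
UBASH3B: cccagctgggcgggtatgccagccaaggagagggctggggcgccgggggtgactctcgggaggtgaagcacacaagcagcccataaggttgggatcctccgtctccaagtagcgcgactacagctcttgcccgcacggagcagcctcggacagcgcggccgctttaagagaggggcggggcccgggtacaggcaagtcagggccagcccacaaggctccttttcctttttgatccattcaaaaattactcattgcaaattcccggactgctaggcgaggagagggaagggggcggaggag
JCAD: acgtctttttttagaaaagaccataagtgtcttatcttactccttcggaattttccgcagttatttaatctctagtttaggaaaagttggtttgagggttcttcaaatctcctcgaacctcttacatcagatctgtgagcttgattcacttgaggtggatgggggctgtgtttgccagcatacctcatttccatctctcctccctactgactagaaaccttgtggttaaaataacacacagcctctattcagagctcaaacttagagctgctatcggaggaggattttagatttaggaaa
CHST15: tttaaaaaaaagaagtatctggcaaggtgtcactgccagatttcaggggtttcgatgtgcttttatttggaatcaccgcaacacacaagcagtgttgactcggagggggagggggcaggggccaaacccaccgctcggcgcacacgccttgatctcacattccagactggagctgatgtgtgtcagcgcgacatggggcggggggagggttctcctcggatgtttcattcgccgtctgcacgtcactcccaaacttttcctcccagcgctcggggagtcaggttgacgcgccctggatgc
SYT2: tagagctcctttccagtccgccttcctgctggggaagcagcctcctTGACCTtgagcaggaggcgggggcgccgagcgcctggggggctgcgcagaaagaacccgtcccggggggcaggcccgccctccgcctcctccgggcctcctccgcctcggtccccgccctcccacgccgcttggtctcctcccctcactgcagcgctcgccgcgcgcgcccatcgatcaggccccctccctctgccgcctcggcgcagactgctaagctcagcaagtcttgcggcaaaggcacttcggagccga
Retinoic acid receptors bind repeats of a hexamer, and the hexamer was searched on both strands, matches allowed to overlap, in 4 spellings: AGGTCA (held by 13.8% of all RefSeq promoter windows of this length), GGGTCA (held by 14.1%), AGTTCA (held by 10.4%) and GGTTCA (held by 8.62%). The SYT2 window held 1 AGGTCA, read on the strand opposite to the one printed, 204 bases before the start. No hexamer was found in the other 5 windows, and no pair of hexamers in the same direction spaced by 1, 2 or 5 bases was found in any. Of all 35116 windows 38.6% held at least 1 of the 4, and 0.131%, 0.0399% and 0.0883% held a repeat with a spacer of 1, 2 or 5 bases. The GC content of the printed windows ran from 40.7% for JCAD to 71.7% for SYT2, beside a median of 58.7% over all windows. These matches describe the letters of a short window and say nothing about binding elsewhere.

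Libraries held 12.82 M to 40.95 M counts, with a median of 22.88 M. Levels are given in CPM of the TMM-adjusted library size, and the 2 values of a group are its 2 libraries. In these bulk samples fewer cells of a kind and less RNA per cell cannot be told apart. Myeloid markers fitted the labels, since PTPRC, SPI1, CD33, CSF1R, CSF3R and CEBPA had medians over 1 CPM in all 6 lines and MPO in 5. The endothelial marker CDH5, of interest because JCAD is known from endothelium, was at 0 in 81 of 96 libraries and reached 0.364 CPM. VWF had a median over 1 CPM in 3 lines and reached 11.5 CPM. The summed level of the 5 endothelial markers had medians of 1.53, 0.822, 0.946 and 0.424 CPM in DMSO, 552A, ATRA and Combo, with ranges of 0.0907 to 4.13, 0.156 to 5.06, 0.117 to 11.9 and 0.0425 to 4.63. HBG1 and PF4 of the 5 erythroid and megakaryocyte markers were at 0 in all 96 libraries, while ITGA2B was at 0 in none, with a median of 0.628 and a highest value of 2.61 CPM. The summed medians of that list were 1.32, 1.11, 0.357 and 0.484 CPM in the same order of treatments. Single markers of other cell types were high in 1 line each, EPCAM in Kasumi1 (median 113 CPM), CD79A in HL60 (34.4) and CD3D in MOLM13 (16.3). The part of these marker levels in the results below was not tested. Some pairs of libraries of 1 group differed in their trend with gene GC content: the slope of their log2 difference per 10 percentage points of GC had a median size of 0.21 over the 48 groups and reached 1.31 in OCIAML3 552A day 2 and 1.00 in THP1 552A day 2. Results were recomputed without 5 libraries chosen from earlier results (on day 2 the second 552A library of THP1 and of OCIAML3, and on day 4 the second Combo library of MV411, the first 552A library of MOLM13 and the first Combo library of Kasumi1). Their groups had slopes of 0.69 to 1.31 in size, and HL60 ATRA day 4 (0.87), MV411 DMSO day 4 (0.72) and HL60 Combo day 2 (0.71), which were kept, had slopes above the smallest of these.

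The members differed in how much transcript they gave before treatment. Per kilobase of exon, the median level over the 12 DMSO libraries of day 4 was 3.24 CPM for UBASH3B, 0.856 for JCAD, 0.199 for SYT2, 0.187 for HIC1, 0.139 for TGM2 and 0.00779 for CHST15. With ATRA on day 4 the medians were 24.2 CPM per kilobase for SYT2, 15.5 for UBASH3B, 9.65 for HIC1, 7.29 for JCAD, 5.54 for TGM2 and 2.25 for CHST15. SYT2 thus passed UBASH3B in this order and CHST15 remained last. Between the summed day 4 libraries across the 6 lines, ATRA against DMSO gave log2 fold changes of 6.37 ± 0.60 (SE) for TGM2, 5.78 ± 1.03 for CHST15, 5.56 ± 0.75 for SYT2, 5.50 ± 0.70 for HIC1, 2.38 ± 0.40 for JCAD and 1.59 ± 0.39 for UBASH3B. The day 2 values were 6.32 for TGM2, 6.18 for CHST15, 5.69 for HIC1, 4.72 for SYT2, 1.99 for JCAD and 1.38 for UBASH3B. These values come from the contrast that chose the genes.

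**Figure D1:**
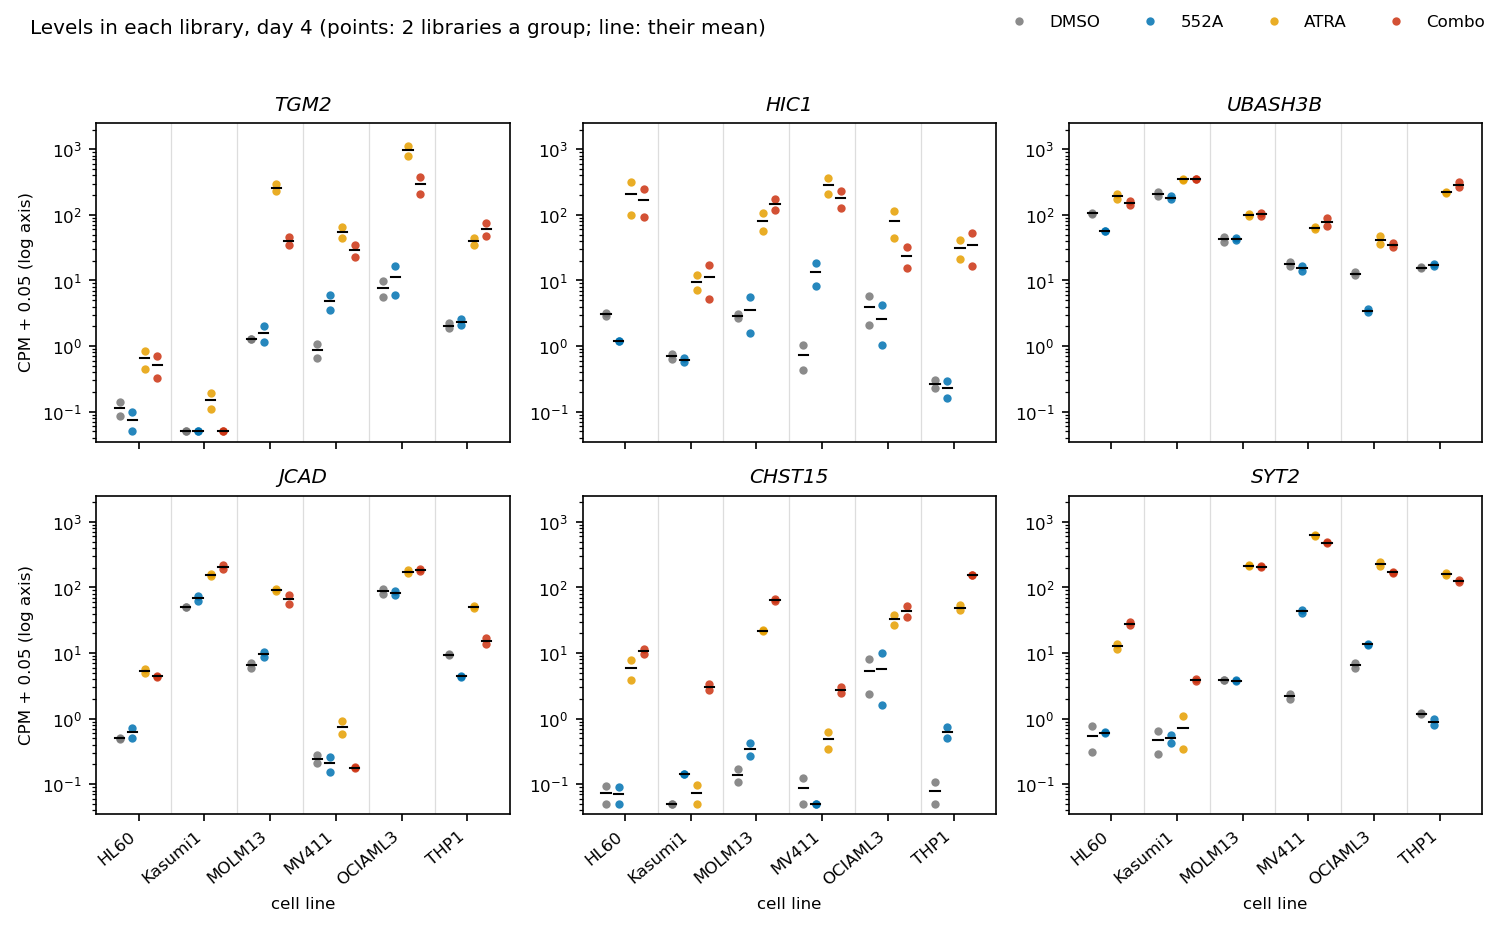
Levels of the 6 genes in each of the 48 day 4 libraries, in CPM plus 0.05 on a log axis, by cell line and treatment (points are libraries, short lines are means of 2). ATRA and Combo points lie above DMSO and 552A points in most panels, while TGM2 in Kasumi1 and HL60 and JCAD in MV411 stay under 1 CPM in all treatments.

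HIC1, the repressor, had higher levels in the ATRA than in the DMSO libraries of the same line in all 6 lines. In MV411 on day 4 its 2 DMSO libraries held 0.379 and 0.975 CPM, the 552A libraries 8.24 and 18.2, the ATRA libraries 208 and 359, and the Combo libraries 128 and 232. In HL60 the DMSO values were 2.85 and 3.14 CPM, those of 552A 1.14 and 1.16, those of ATRA 99.3 and 317, and those of Combo 92.2 and 244. The ATRA and Combo libraries of both lines lay far above DMSO and 552A and overlapped each other. In THP1 HIC1 went from 0.176 and 0.253 CPM in DMSO to 21.5 and 40.8 in ATRA, and in Kasumi1, the line with the lowest ATRA level, from 0.591 and 0.707 to 7.21 and 11.9. OCIAML3 gave 44.9 and 115 CPM with ATRA and MOLM13 57.1 and 106, and these ranges overlapped each other and that of HL60. The 2 libraries of a group lay far apart in HL60 ATRA day 4 and in OCIAML3 Combo day 2 (10.9 and 43.8 CPM), and the exons of HIC1 have 63.5% GC, the highest of the 6 members. The part of GC content in that spread was not tested. With each library corrected for its GC and length trend, the day 4 value across lines given below was 5.12 in place of 5.03. Within lines that correction moved some log2 values of Combo against 552A more. They were 4.91 in place of 3.99 in MV411 and 9.74 in place of 10.57 in THP1 on day 2. In OCIAML3 on day 4 the value was 3.95 in place of 3.13. SMG6, which shares exon bases with HIC1, ran from 4.01 to 13.1 CPM in THP1 and from 22.7 to 120.5 in MV411. SMG6 itself rose in Combo against 552A on day 4, by 0.94 ± 0.21 on the log2 scale (edgeR adjusted p = 0.0134), and how much of this comes from shared bases was not tested.

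TGM2, the transglutaminase, had its highest levels in OCIAML3 and MOLM13. In OCIAML3 on day 4 it stood at 5.53 and 9.72 CPM in DMSO, 5.89 and 16.7 in 552A, 803 and 1135 in ATRA, and 206 and 383 in Combo. In MOLM13 the same groups held 1.22 and 1.24, 1.09 and 1.97, 229 and 293, and 34.8 and 45.7 CPM. In these lines the Combo libraries lay between the untreated and the ATRA libraries without touching either. MV411 reached 44.0 and 65.2 CPM with ATRA and THP1 35.1 and 45.0, and these 2 lines overlapped. THP1 was the line in which Combo lay above ATRA, at 47.6 and 75.7 CPM. HL60 peaked on day 2, with 3.12 and 7.89 CPM in ATRA against 0.399 and 0.801 on day 4. Kasumi1 never passed 0.145 CPM in its 16 libraries and did not pass the filter on low counts, so TGM2 was described there and not tested. RPRD1B, which shares 394 exon bases with TGM2, changed little in Combo against 552A on day 4 (log2 0.08 ± 0.09, adjusted p = 0.632).

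CHST15, the chondroitin sulfotransferase, started near 0 in 5 lines. On day 4 the DMSO libraries of HL60, Kasumi1, MOLM13, MV411 and THP1 held at most 0.122 CPM, and only OCIAML3 had more, 2.36 and 8.17. With ATRA on day 4 THP1 reached 45.1 and 53.5 CPM, OCIAML3 26.6 and 38.6, MOLM13 21.7 and 22.4, HL60 3.79 and 7.80, and MV411 0.291 and 0.579, in that order without overlap. Kasumi1 held 0 and 0.0483 CPM with ATRA, the level of its controls. With Combo the 2 values were 154 and 157 CPM in THP1, 61.4 and 67.4 in MOLM13, 9.79 and 11.6 in HL60, and 2.67 and 3.35 in Kasumi1, and MV411 had a mean of 2.67 ± 0.386 (SD, n = 2). All of these lay above the ATRA libraries of the same line, while in OCIAML3 the Combo values of 35.0 and 52.4 overlapped those of ATRA.

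UBASH3B, the CBL-binding phosphatase, was well expressed before treatment and had the smallest fold of the 6 in ATRA against DMSO across lines. In Kasumi1 on day 4 DMSO held 195 and 221 CPM, 552A 174 and 192, ATRA 339 and 356, and Combo 354 and 359. In THP1 the levels were 15.5 and 15.7 CPM in DMSO, 16.8 and 18.0 in 552A, 213 and 227 in ATRA, and 263 and 318 in Combo. These lines lay far apart in DMSO and much closer with ATRA. ATRA gave 175 and 208 CPM in HL60, 96.5 and 104 in MOLM13, 59.9 and 65.0 in MV411 and 35.4 and 47.4 in OCIAML3, and no neighbours in the order of the 6 lines overlapped. In OCIAML3 the 552A libraries, at 3.23 and 3.56 CPM, lay below DMSO at 12.0 and 13.4.

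JCAD, the junction protein, differed widely between lines before treatment. On day 4 OCIAML3 held 80.8 and 94.6 CPM in DMSO and Kasumi1 50.1 and 50.4, whereas MV411 held 0.163 and 0.227 and HL60 0.443 and 0.455. The ATRA libraries held 164 and 185 CPM in OCIAML3, 150 and 163 in Kasumi1, then 87.3 and 95.3 in MOLM13, 48.4 and 51.5 in THP1, and 4.94 and 5.57 in HL60. MV411 stayed under 1 CPM in each treatment, with 0.541 and 0.872 in ATRA and 0.125 and 0.131 in Combo. In THP1 JCAD was lower with the inhibitor, both with and without ATRA: 552A held 4.33 and 4.43 CPM against 9.17 and 9.76 in DMSO, and Combo 13.7 and 16.9 against the ATRA values.

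SYT2, the synaptotagmin, had the highest median level per kilobase with ATRA on day 4. In MV411 on day 4 DMSO held 1.93 and 2.36 CPM, 552A 41.1 and 44.9, ATRA 615 and 638, and Combo 479 and 492. The 4 groups did not overlap, and 552A alone lay well above DMSO. ATRA gave 216 and 248 CPM in OCIAML3 and 210 and 223 in MOLM13, which overlapped, 153 and 167 in THP1, 11.3 and 13.8 in HL60, and 0.290 and 1.05 in Kasumi1. In HL60 the ATRA libraries of day 2 held 2.00 and 4.12 CPM. In Kasumi1 the ATRA libraries of day 4 overlapped DMSO (0.236 and 0.606 CPM), and Combo held 3.65 and 3.97. PPP1R12B, which shares 2111 exon bases with SYT2, ran from 42.3 to 303 CPM in MV411 and rose in Combo against 552A on day 4, by 1.01 ± 0.21 on the log2 scale (adjusted p = 0.0101). How much of the SYT2 or PPP1R12B count comes from shared bases was not tested.

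**Figure D2:**
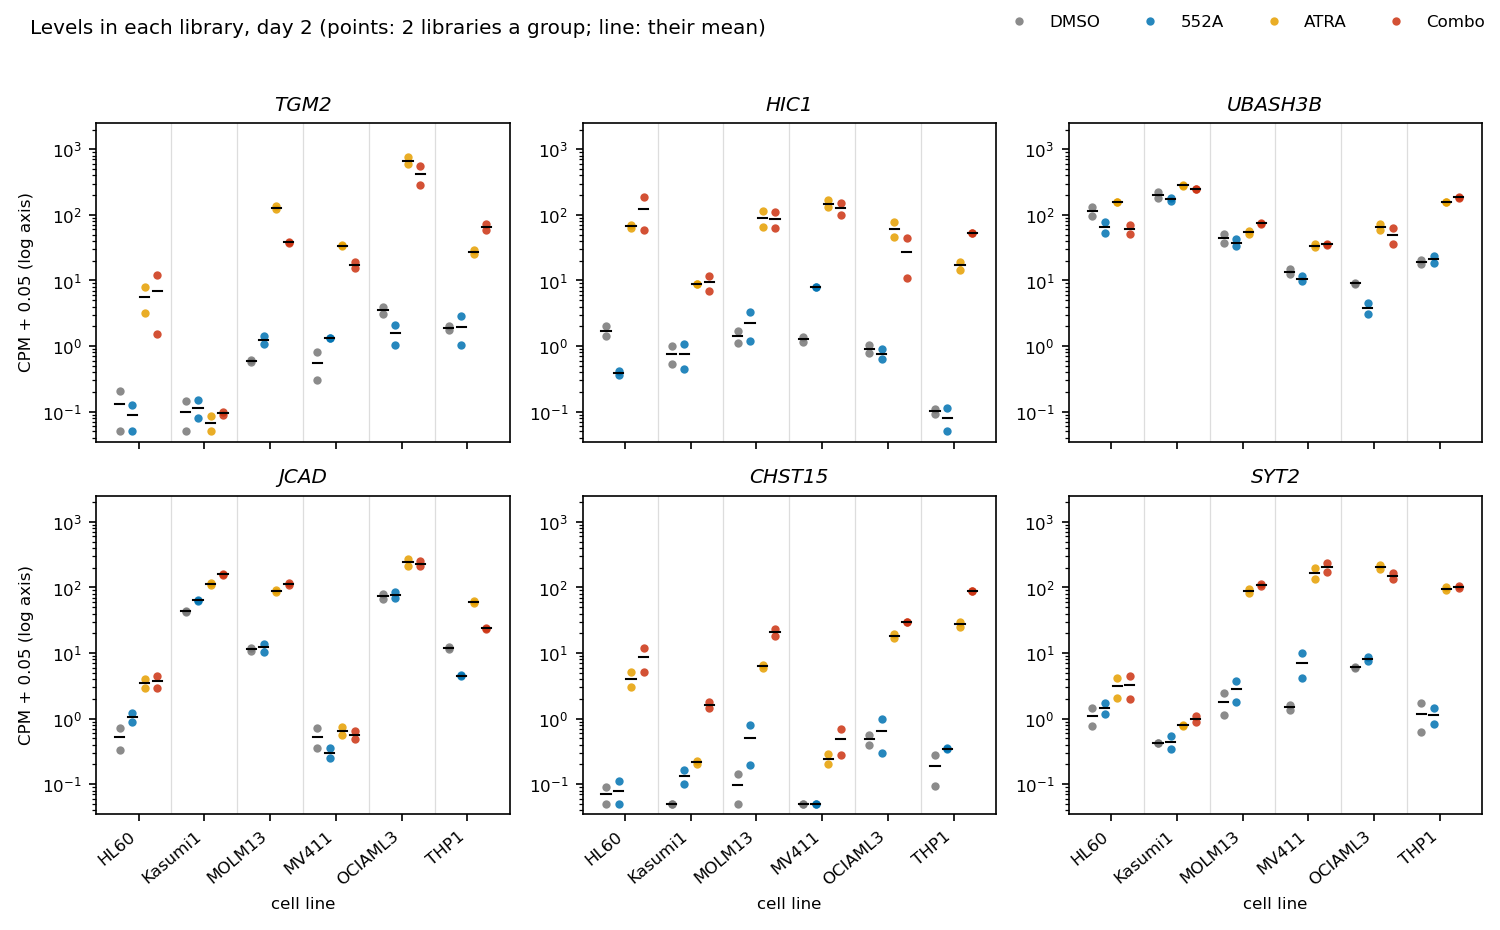
Levels of the 6 genes in each of the 48 day 2 libraries, drawn as for day 4 (CPM plus 0.05, log axis; points are libraries, short lines means of 2). SYT2 in HL60 and Kasumi1 stays under 5 CPM with ATRA on day 2, and TGM2 in HL60 is higher than on day 4.

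Combo against 552A asks whether ATRA moves the same genes when LSD1 is inhibited. Neither of its 2 groups entered the contrast that chose the members. The fits held all 4 treatments, however. The ATRA and DMSO libraries thus entered the filter, the normalisation, the line effects and the estimate of spread behind each SE and p. With the replicates summed and the 6 lines as blocks, all 6 members rose on day 4, where 3.72% of 24199 genes tested were called higher at a Benjamini-Hochberg adjusted p under 0.05 (edgeR's quasi-likelihood test, used throughout). The log2 fold changes were 6.84 ± 1.01 (SE) for CHST15 (adjusted p = 0.00233), 5.03 ± 0.68 for HIC1 (0.00146), 4.63 ± 0.70 for SYT2 (0.00262), 4.04 ± 0.53 for TGM2 (0.00146), 2.18 ± 0.40 for UBASH3B (0.00713) and 1.87 ± 0.40 for JCAD (0.0113). As folds these run from 3.66 for JCAD to 115 for CHST15. On day 2, with 2.24% of 24130 genes called higher, 5 of the 6 rose: CHST15 by 6.29 ± 0.57 (9.13e-06), HIC1 by 5.60 ± 0.66 (0.000214), TGM2 by 5.39 ± 0.69 (0.00035), SYT2 by 4.16 ± 0.76 (0.00668) and JCAD by 1.93 ± 0.35 (0.00627). UBASH3B had a value of 1.61 ± 0.44 on day 2 and an adjusted p of 0.0527. Without the 5 libraries named above the day 4 values were 6.76 for CHST15, 5.09 for HIC1, 4.62 for SYT2, 4.05 for TGM2, 2.14 for UBASH3B and 1.90 for JCAD, all still called. All 6 passed the filter on low counts on both days from their DMSO and 552A libraries alone. Single lines or replicates moved some sizes by over 1.5 times with the call kept. On day 4 TGM2 was at 4.69 without MV411 and at 3.42 and 4.72 without replicate 1 and replicate 2, HIC1 at 4.30 and 5.95 without them, and CHST15 at 7.72 without OCIAML3 and 6.21 without THP1. On day 2 TGM2 was at 4.74 without OCIAML3 and CHST15 at 7.13 without replicate 2.

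The day 2 calls of SYT2 and UBASH3B turned on single lines. SYT2 was not called without MOLM13 (3.83, adjusted p = 0.0531) or without THP1 (3.70, 0.064). UBASH3B was called without HL60 (1.90, adjusted p = 0.0478) or without Kasumi1 (1.86, 0.0447), and in 4 other alternatives, among them DESeq2 (1.63, 0.00572). No member's response was called as different between the days, with 0.004% of 25017 genes called. The largest day 4 minus day 2 difference was that of TGM2, -1.90 ± 0.90 on the log2 scale (unadjusted p = 0.0405, adjusted p = 0.9995).

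Within single lines, with 2 libraries a group, 33 of 35 pairs of member and line rose in Combo against 552A on day 4, where 7.73% of all pairs of gene and line were called higher. The 2 exceptions were JCAD in MV411 (log2 -0.32 ± 0.75, adjusted p = 0.85) and TGM2 in HL60 (4.14 ± 1.68, adjusted p = 0.0847). On day 2, 29 of 35 pairs rose, with 6.61% of all pairs called. Of the 35 pairs, 7 passed the filter on low counts only through their ATRA or Combo libraries, so a difference was built in, and their rises, 5 on day 4 and 6 on day 2, are no support. These 7 were CHST15 in HL60, Kasumi1, MOLM13 and MV411, TGM2 in HL60, HIC1 in THP1 and JCAD in MV411. The other 28 gave 28 rises on day 4 and 23 on day 2. The 6 of all 35 pairs not called on day 2 were HIC1, SYT2 and UBASH3B in Kasumi1, SYT2 and UBASH3B in HL60 and JCAD in MV411. JCAD in MV411 is 1 of the 7 pairs that passed only through ATRA or Combo. Of the 6, only UBASH3B in HL60 had a value below 0 (-0.11). HIC1 in Kasumi1 on day 2 (3.68 ± 0.61, adjusted p = 0.0783) was called with DESeq2, without a filter, with the correction for GC content and length and with the replicate number as a block. In OCIAML3 the day 4 calls of CHST15 and HIC1 rested on single libraries: CHST15 (2.88 ± 0.76) ran from 2.13 without 552A replicate 1 to 4.76 without 552A replicate 2 and lost its call in 5 of 8 such fits, and HIC1 (3.13 ± 0.84) ran from 2.49 to 4.55 without each 552A library and lost its call without either of them or either Combo library. JCAD in OCIAML3 lost its call without 552A replicate 1 (1.05). Where the 552A group held few counts the fitted fold depends on the prior count. CHST15 had 0 counts in both 552A libraries of MV411 and was at least 37.2-fold higher in Combo on day 4, and at least 8.04-fold on day 2, taking 3 counts over the group as the floor. CHST15 in HL60 had 1 count in 552A and 565 in Combo on day 4, a ratio of 481 with an exact 95% counting interval of 86.0 to 19039. TGM2 in HL60 had 1 count against 26, a ratio of 22.1 with an interval of 3.64 to 908. These intervals and floors cover counting error only. CHST15 in MV411 and HL60 and TGM2 in HL60 are among the 7 pairs above, so these folds describe the counts and are no support.

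**Figure D3:**
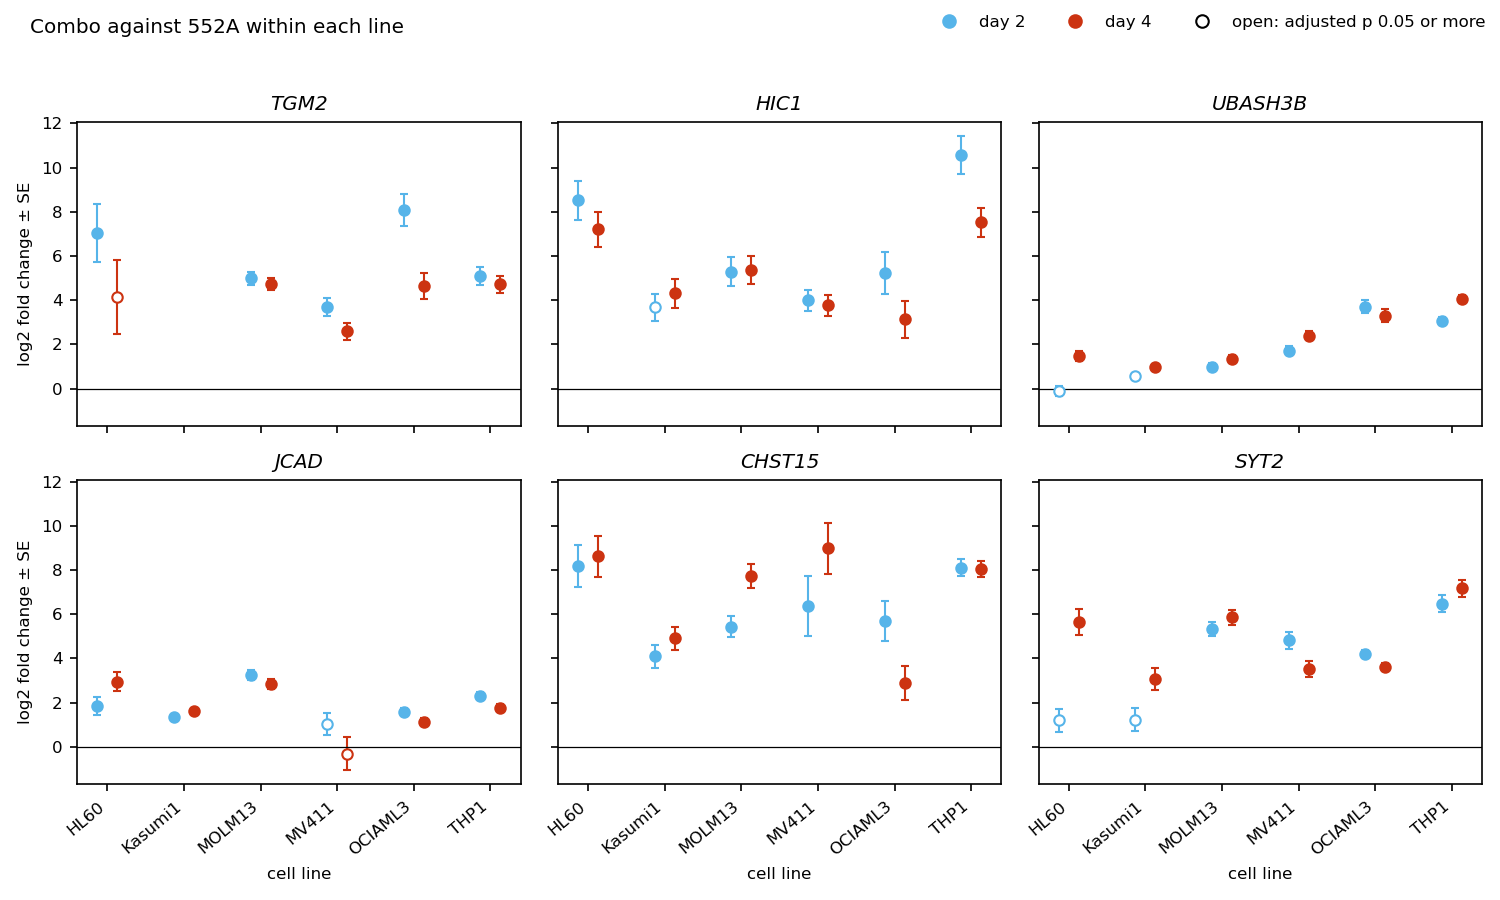
Log2 fold change of Combo against 552A within each line, with its SE, for day 2 and day 4 (filled points passed an adjusted p under 0.05, and TGM2 was not tested in Kasumi1). On day 4 UBASH3B runs from 0.97 in Kasumi1 to 4.03 in THP1, and HIC1 from 3.13 in OCIAML3 to 7.52 in THP1 (6.53 to 8.26 without single libraries). HIC1 in THP1 passed the low-count filter only through ATRA or Combo, so its rise is no support. Values against a 552A group with 3 or fewer counts, as for CHST15 in HL60 and MV411, depend on the prior count.

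Few genes rose in Kasumi1, and members were among them. Combo against 552A called 0.122% of 18001 genes higher in this line on day 4 and 0.05% on day 2. CHST15 passed the low-count filter there only through its Combo libraries, with 35 to 65 counts each against at most 5 in any other library of the line, so a difference was built into its Combo comparisons in this line. All 5 members tested rose on day 4: CHST15 by 4.90 ± 0.53, HIC1 by 4.30 ± 0.65, SYT2 by 3.07 ± 0.51, JCAD by 1.61 ± 0.13 and UBASH3B by 0.97 ± 0.13 on the log2 scale (adjusted p = 0.00499, 0.02, 0.0383, 0.000227 and 0.00861). On day 2 JCAD (1.36 ± 0.13, adjusted p = 0.00271) and CHST15 (4.09 ± 0.52, adjusted p = 0.0327) rose. Leaving out either day 4 552A library ended the day 4 calls of CHST15, HIC1, SYT2 and UBASH3B in Kasumi1, as did leaving out Combo replicate 1 for SYT2. HIC1 was at 4.96 and 3.13 without Combo replicate 1 and replicate 2, still called.

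The size of the response differed between lines for all 6 members on day 4, by an F test of the 5 line contrasts over 48 libraries, in which 28% of 23385 genes were called. The adjusted p was 3.07e-12 for UBASH3B, 2.45e-09 for SYT2, 1.13e-06 for JCAD, 0.000102 for CHST15, 0.0124 for HIC1 and 0.0458 for TGM2. UBASH3B rose by 4.03 ± 0.18 in THP1 and 3.29 ± 0.29 in OCIAML3 but by 1.34 ± 0.19 in MOLM13 and 0.97 ± 0.13 in Kasumi1. SYT2 rose by 7.17 ± 0.39 in THP1 and 5.86 ± 0.34 in MOLM13 against 3.52 ± 0.35 in MV411 and 3.07 ± 0.51 in Kasumi1. JCAD rose by 2.95 ± 0.42 in HL60 and 1.12 ± 0.19 in OCIAML3, and stood at -0.32 ± 0.75 in MV411. The TGM2 call was lost with the replicate number as a block (adjusted p = 0.0639). The TGM2 test included Kasumi1, where both groups held 0 counts and no fold is defined, and the call was kept without that line. For CHST15 the 552A group held 0 counts in MV411 and 1 in HL60, so its fitted response there depends on the prior count. Its value in OCIAML3 ran from 2.13 to 4.76 without single libraries. The error of this F test is the spread between the 2 libraries of a group, which may be technical.

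The effect of the inhibitor alone, 552A against DMSO, shares its DMSO libraries with the contrast that chose the members. Across lines no member was called on day 2 (1.96% of genes called) or day 4 (0.393%), with day 4 values from -0.52 ± 0.38 for UBASH3B to 1.05 ± 0.70 for SYT2. The unadjusted p was above 0.05 for each member on both days, the lowest being 0.0514 for CHST15 on day 2. In MV411 HIC1 rose by 2.66 ± 0.50 on day 2 and 4.27 ± 0.54 on day 4, SYT2 by 2.29 ± 0.38 and 4.28 ± 0.38, and TGM2 by 2.51 ± 0.43 on day 4 (adjusted p = 0.0156, 0.000607, 0.00754, 3.94e-05 and 0.00439). HIC1 in MV411 on day 4 was at 3.58 without 552A replicate 2 and 5.21 without DMSO replicate 1, and the TGM2 call was lost without DMSO replicate 2 of day 4. In OCIAML3 SYT2 rose by 1.08 ± 0.17 on day 4 (adjusted p = 0.00561), and UBASH3B fell by 1.26 ± 0.27 on day 2 and by 1.89 ± 0.28 on day 4 (adjusted p = 0.0386 and 0.00285). The UBASH3B day 4 call was lost without 552A replicate 1, and the SYT2 call without DMSO or 552A replicate 2. In THP1 JCAD fell by 1.37 ± 0.16 and 1.12 ± 0.16 on day 2 and day 4 (adjusted p = 0.000305 and 0.00102). CHST15 rose there on day 4, from 1 count to 32, a ratio of 21.1 with an exact 95% counting interval of 3.53 to 860 (edgeR adjusted p = 0.0042), a call lost without DMSO replicate 1 (fitted log2 3.14, and 6.71 without DMSO replicate 2). In all, 2 of 35 pairs rose and 2 fell on day 2, beside 2.26% and 0.537% of all pairs, and 5 rose and 2 fell on day 4, beside 2.7% and 1.01%.

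Adding the inhibitor to ATRA, Combo against ATRA, shares its ATRA libraries with the contrast that chose the members. No member was called across lines on day 2 (0.895% of genes called) or day 4 (0.273%). The values farthest from 0 were those of CHST15, 1.47 ± 0.41 on day 2 (adjusted p = 0.116) and 1.85 ± 0.74 on day 4 (0.389), and of TGM2, -1.29 ± 0.46 on day 4 (0.319). Their unadjusted p were 0.00204, 0.0216 and 0.011. CHST15 rose within Kasumi1, MOLM13 and THP1 on day 2 (3.19 ± 0.48, 1.74 ± 0.38 and 1.66 ± 0.26) and within those lines and MV411 on day 4. The day 4 rises were 1.55 ± 0.37 in MOLM13, 2.55 ± 0.57 in MV411 and 1.66 ± 0.26 in THP1. In Kasumi1 1 count with ATRA stood against 113 with Combo, a ratio of 111 with an exact 95% counting interval of 19.4 to 4406. In HL60, Kasumi1, MOLM13 and MV411 CHST15 passed the low-count filter only through its ATRA or Combo libraries, the groups compared here. Its values and calls in these lines are therefore no support. The MOLM13 call was lost without any of its 4 Combo and ATRA libraries of day 4, and the MV411 call without 3 of them, ATRA replicates 1 and 2 and Combo replicate 2. SYT2 rose in Kasumi1 on day 4 by 2.48 ± 0.49, a call lost without ATRA replicate 2 (1.83), while the value without ATRA replicate 1 was 3.62.

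The other members moved in single lines and in both directions. TGM2 was lower with Combo in MOLM13, by -1.75 ± 0.23 on day 2 and -2.69 ± 0.24 on day 4 (adjusted p = 0.00105 and 3.85e-05), and higher in THP1 on day 2 (1.26 ± 0.33, adjusted p = 0.0298). HIC1 was higher in THP1 on day 2 (1.62 ± 0.46, adjusted p = 0.0392), by 0.47 with the correction for GC content and length (adjusted p = 0.0193). JCAD was lower in THP1 on both days (-1.38 ± 0.15 and -1.71 ± 0.16) and in MV411 on day 4 (-2.42 ± 0.60, adjusted p = 0.0148), the last at levels under 1 CPM and lost without ATRA replicate 1 or Combo replicate 2. UBASH3B was lower in HL60 on day 2 (-1.38 ± 0.23, adjusted p = 0.00396). On day 2, 5 of 35 pairs rose and 3 fell, beside 3.25% and 1.9% of all pairs. On day 4 the counts were again 5 and 3, beside 4.84% and 3.58%. These counts include pairs that passed the low-count filter only through their ATRA or Combo libraries, whose calls are no support. They are CHST15 in Kasumi1, MOLM13 and MV411, HIC1 in THP1 and JCAD in MV411.

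**Figure D4:**
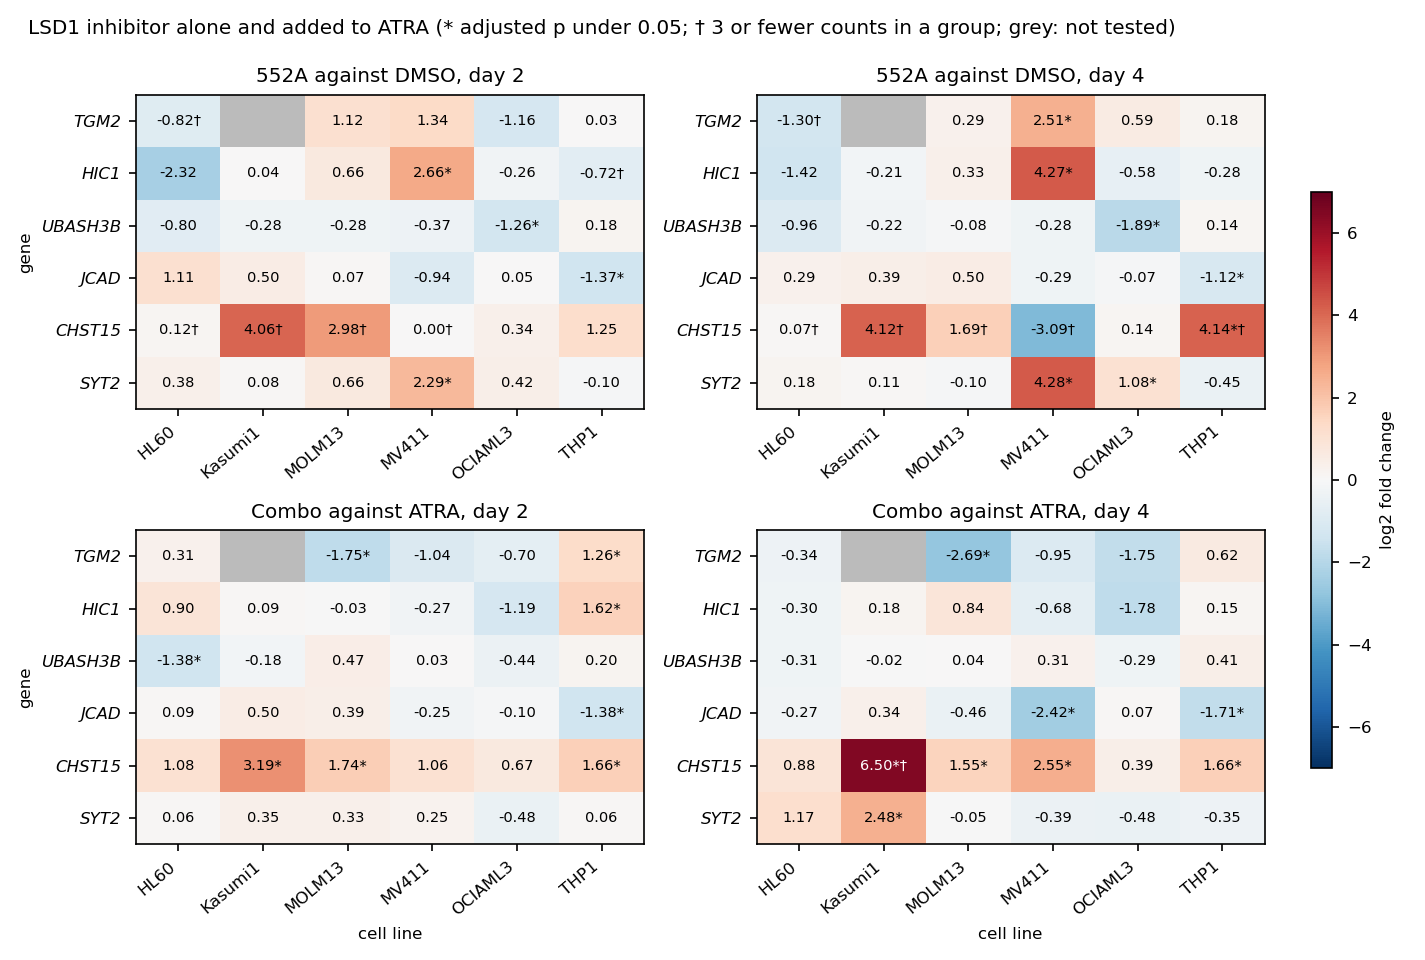
Log2 fold changes within each line (columns) for the 6 genes (rows): 552A against DMSO above and Combo against ATRA below, day 2 left and day 4 right. Stars mark adjusted p under 0.05, daggers mark pairs with 3 or fewer counts in a group, whose fitted value depends on the prior count, and grey marks TGM2 in Kasumi1, not tested. In the upper panels HIC1 is starred in MV411 on both days and SYT2 in MV411 on both days and in OCIAML3 on day 4. In the lower panels the CHST15 values of HL60, Kasumi1, MOLM13 and MV411 are no support. There the gene passed the low-count filter only through ATRA or Combo.

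Lists of genes around the members were read in the same Combo against 552A fits across lines. Those fits called 3.72% of 24199 genes higher on day 4 and 2.24% of 24130 on day 2. The share of all genes called lower is not given here, so counts of list genes that fell have no background beside them. Single calls in a list are given as values and not as a result about the list. Of 24 retinoic acid response genes, 23 were tested on day 4, 7 rose and 1 fell, with a median log2 of 1.19 beside 0.00 over all genes, and on day 2 8 of 22 rose and 0 fell, with a median of 1.64 beside 0.01. CYP26A1, the retinoic acid hydroxylase, held 8 counts over the 12 DMSO libraries of day 4, 1 over those of 552A and 8191 over those of Combo. It can have passed the low-count filter only through ATRA or Combo, so a difference was built in. Its call, counted among the 7 of day 4, is no support. Apart from SYT10 below, other list genes were not checked for this. On day 4 CD38 rose by 4.11 ± 0.68 (adjusted p = 0.00479), and RXRA, the partner receptor, was the gene that fell, by 0.90 ± 0.22 (0.0194). Of the HIC1 list, 1 of 6 genes rose on day 4, SIRT1 itself, by 0.52 ± 0.12 (adjusted p = 0.0166). CTBP2 was at 0.54 ± 0.24 (0.163) and the chemokine receptor ACKR3 at 0.82 ± 0.49 (0.307).

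In the transglutaminase family 1 of 6 tested genes fell on day 4, TGM3 (-5.81 ± 0.83, adjusted p = 0.00752), which was above 3 counts in 1 line only. TGM3 was also the 1 gene of the whole table called for a difference between day 4 and day 2 (-5.68 ± 0.98, adjusted p = 0.0495). TGM1 was at -0.72 ± 0.24 (0.0693) and the coagulation factor gene F13A1 at -1.37 ± 0.75 (0.265). In chondroitin sulfate synthesis 1 of 22 fell, the sulfotransferase CHST13 (-3.24 ± 0.55, adjusted p = 0.00562), and none rose, while the proteoglycan core proteins SRGN and CSPG4 were at 1.05 ± 0.34 (0.0617) and -2.11 ± 0.68 (0.062). Of 9 other synaptotagmins tested 1 rose, SYT10 (3.25 ± 0.72), with 12 counts over all 552A libraries and 88 over all Combo libraries of day 4. With 1 count in DMSO, SYT10 too can have passed the low-count filter only through ATRA or Combo, so its call is no support. SYT11 was at 0.57 ± 0.46 (adjusted p = 0.47). None of the 3 tested UBASH3B partners, SYK (-0.13 ± 0.16), CBLB (0.15 ± 0.40) and CBL (-0.03 ± 0.19), and none of the 12 Hippo genes was called. TEAD4, TEAD3 and AMOTL1 were the Hippo genes with the smallest p, at -1.49 ± 0.46 (0.0547), -0.66 ± 0.29 (0.159) and -0.55 ± 0.27 (0.22). The medians of these lists on day 4 were -0.60 for transglutaminases, -0.12 for chondroitin sulfate synthesis, 0.51 for synaptotagmins, 0.17 for the HIC1 list, -0.03 for the UBASH3B list and -0.27 for the Hippo list. On day 2 the sulfotransferase CHST3 rose (1.69, adjusted p = 0.0468) and no other gene of these 6 lists was called.

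The members' patterns were also compared over the 48 group means, in log2 CPM with each line centred on its own mean, as a description across 15291 genes. Among the members Pearson's r ran from 0.58 (UBASH3B and JCAD) to 0.92 (HIC1 and SYT2). The genes most like TGM2 were CYP26A1 (0.92), SLC12A4 (0.90) and GALM (0.90). Those most like HIC1 were RNF122, KANSL3 and NCF1 (0.94, 0.94 and 0.93), and those most like SYT2 were TRAFD1, SCIMP and PALLD (0.93, 0.92 and 0.92). CHST15 was followed by IRF1, CLEC17A and PALLD (0.91, 0.90 and 0.90), JCAD by PSME2, ARL14EPL and PTGES (0.91, 0.86 and 0.85), and UBASH3B by MPPED1, SMIM3 and ADAM17 (0.89, 0.88 and 0.88). The 5 genes most like the mean of the 6 were RNF122 (0.96), the members HIC1 (0.96) and SYT2 (0.95), the interferon regulatory factor IRF1 (0.95) and HNRNPLL (0.95). The points share libraries and the ATRA contrast that chose the members. Without centring the lines, 3 of the 23 genes were again among those named for the same pattern, and with a prior count of 0.5 in place of 2, 18 were.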

How the data were processed

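RNA-seq read counts per gene were deposited for 96 libraries. Total RNA libraries were made with a stranded kit, per the labels' protocols; reads were trimmed with Trimmomatic 0.36, aligned to GRCh38 with STAR 2.4.2a and counted with HTSeq 0.6.0, per the submitters' processing notes. The annotation release and strand setting are not given in the sources used here. Of 60552 rows, 56994 matched GENCODE release 29 by identifier, and the others held 0.0417% of counts. There were 0 columns of no sample.

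Counts were tested with edgeR 4.0.16 in R 4.3.3 (TMM, filterByExpr, quasi-likelihood test, Benjamini-Hochberg adjusted p under 0.05 over all genes tested). Across lines the 2 replicates were summed and line was a block (24 sums a day). Within a line 16 libraries were fitted as 8 groups. All 6 members passed the filter across lines, and 35 of 36 pairs of member and line passed it within lines. Tables and figures were made with Python 3.11.15, pandas 2.3.3 and matplotlib 3.10.9. The members and gene lists were chosen with earlier results of these data known. All members are named, with up to 3 genes of each list by smallest p of Combo against 552A on day 4 and the genes with the highest correlation to each member. Genes such as CHST3, named outside this rule, were chosen after their values were seen. On simulated counts the across-line test found 95% of genes changed by log2 1 and 100% of those changed by 2 (24199 genes). The test within THP1 found 22% and 94% (19916 genes). The simulation gave all genes the same dispersion, and all lines the same baseline and response. Its changed genes were drawn from well-counted ones. These shares therefore do not give the power for members that vary between lines or hold few counts, and a member not called may still have changed. Alternatives were DESeq2 1.42.0, size factors (RLE) in place of TMM, no filter, a lowess correction for GC content and length (span 0.3), a replicate block, and leaving out lines, replicates, single libraries or the 5 named libraries.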

Additional observations from a re-analysis of the deposited data

Results flagged for a closer look

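The response of TGM2 to ATRA with the inhibitor present had its lowest fitted log2 value in MV411, 2.60 in Combo against 552A on day 4. Its gap to the next of the 5 tested lines was large for the range of the 5. The next was HL60, at 4.14 ± 1.68, not called and resting on 1 count in 552A. Its exact 95% counting interval of 3.64 to 908 includes the MV411 fold of 6.07, so the order of these lines and the gap are not secure. OCIAML3, THP1 and MOLM13 lay at 4.65 to 4.73. The measure ignores the SE of each line. Chance marks about 1 in 20 groups in this way. The number of groups screened is not given here, so the mark may be due to chance. MV411 was also the line in which TGM2 was called higher with 552A alone on day 4, a call that rested on 1 DMSO library. Both contrasts use the same 552A libraries of MV411, so the values are not independent. A link between them was not tested.

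The size of the day 4 response to Combo against 552A differed between lines for the 6 members, by edgeR's quasi-likelihood F test. The adjusted p was 3.07e-12 for UBASH3B, 2.45e-09 for SYT2, 1.13e-06 for JCAD, 0.000102 for CHST15, 0.0124 for HIC1 and 0.0458 for TGM2, in a test that called 28% of all genes. For TGM2 the test included Kasumi1, where both groups held 0 counts. For CHST15 it included MV411 and HL60, where the 552A group held 0 counts and 1 count and the fitted response depends on the prior count. The TGM2 call was lost with the replicate number as a block (adjusted p = 0.0639).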

How the results depend on the processing

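Across lines, 567 of 576 values of members under the alternatives kept their side of the threshold, 6 passed it and 3 lost it. Of 546 of these that have a sign, 21 changed it, none of them called in either fit. On day 4 all 6 members remained higher in Combo against 552A under all 13 alternatives. Within lines 1807 values kept their side, 49 passed the threshold and 34 lost it, and 45 changed sign, again none called in either fit. For 552A against DMSO on day 2, 6 pairs of member and line rose with the correction for GC content and length (2 in the fit reported), and 4 fell with that correction and 4 without a filter (2 reported). On day 4, 4 fell with the correction and 4 without a filter (2 reported), and leaving out single libraries gave 1 to 2. For Combo against ATRA, 5 fell on day 2 without a filter (3 reported). On day 4, 8 rose with the correction (5 reported), and 5 fell with DESeq2, 6 with the correction and 7 without a filter (3 reported). The causes were not tested.

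Counts over all genes moved more. Across lines, genes higher in Combo against 552A ran from 75 to 1067 on day 2 (541 reported) and from 193 to 1756 on day 4 (900). Genes higher in 552A against DMSO ran from 84 to 848 (380) and from 27 to 297 (92), and lower from 5 to 656 (92) and from 0 to 36 (3). For Combo against ATRA the ranges were 53 to 422 (202) and 0 to 287 (61) higher, and 1 to 64 (14) and 0 to 88 (5) lower. The day difference gave 0 to 1 genes (1), and the difference between lines 6451 to 10966 (6540). Pairs of gene and line reached 13848 and 15847 higher for Combo against 552A on day 2 and day 4 (7581 and 8876), 5716 and 7133 higher for 552A against DMSO (2597 and 3096), and 3400 and 4533 lower (616 and 1159). For Combo against ATRA they reached 8844 and 11209 higher (3731 and 5549) and 6043 and 8920 lower (2176 and 4110).

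Replicate numbers were not taken as pairing the samples, since by line only 13 to 21 of 28 pairs of groups had a correlation of same-numbered deviations over 0.1 (median 0.06 to 0.43, single values from -0.81 to 0.91). With the replicate block, 30 and 33 pairs of member and line rose in Combo against 552A on day 2 and day 4 (29 and 33 without it), and pairs of gene and line lower in 552A against DMSO on day 2 went from 616 to 1207. Members under 1 CPM, such as TGM2 in HL60 on day 4 and JCAD in MV411, are limited by depth.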
